A study of Mus musculus with 6 samples.

Results

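Lysosomal hydrolases and lysosomal membrane proteins were followed through 6 bulk RNA-seq libraries of the erythro-myeloid progenitor (EMP) lineage of the mouse embryo. The group was given as a list of 39 gene symbols covering cathepsins and other proteases, glycosidases, sulfatases, lipid hydrolases with their cofactors, and membrane proteins. Of these, 37 had a row among the 17909 genes of the FPKM table (fragments per kilobase of transcript, scaled to a common number of mapped fragments). Ppt1 and Manba were outside these and entered only the promoter windows below. Cells came from embryos of a C57BL/6xFVB background and had been sorted by fate mapping with Csf1r-iCre, a Cre recombinase named after the gene of the macrophage colony-stimulating factor receptor, and this background and Cre are common to all groups. The fetal liver at embryonic day E11.5 gave EMPs, mast cell progenitors (MCPs) and cells labelled macrophages (MAC). The limb gave MCPs on the same day and again at E14.5. The skin gave cells at E16.5 that are titled MCPs and described as mast cells. Each group held 1 library, so no replicate error and no test existed. How many embryos went into a library is not given in the sources used here. The lineage is studied for the origin of the mast cells of adult connective tissue, per the series title.

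Lysosomes are acidic organelles in which soluble hydrolases take apart proteins, sugar chains and lipids, enclosed by a membrane rich in heavily glycosylated proteins. Most hydrolases reach the lysosome on mannose 6-phosphate receptors and work at the low pH that the V-ATPase proton pump maintains. In macrophages this machinery digests what the cell has taken up, and the secretory granules of mast cells are lysosome-related organelles that hold some of the same enzymes beside mast cell proteases. Factors of the MiT/TFE family (TFEB, TFE3, MITF, TFEC) bind E-box elements near many lysosomal genes, and MITF is also required for mast cell development.

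Because these factors bind such elements, the stretches around the gene starts are shown first. RefSeq promoter windows on GRCm38.p6, from 250 bases before to 50 after a gene start, were at hand for 34 listed members in 37 windows. These include Ppt1 and Manba, and none was matched for Ctsb, Ctsh, Asah1, Galns and Npc1. In 33 of the 37 windows, bases after the start were found in a transcript of the gene in the GENCODE M21 annotation. The motif TCACGTG, searched on both strands, was in 10 of the 37 windows (27%), against 3.77% of all 32851 windows. Among the 16951 windows of genes in the FPKM table the share was 4.91%. The motif was chosen because such elements are known near many lysosomal genes, so the higher share in the members is not an independent result. Its core CACGTG, which each TCACGTG also counts under, was in 12 windows (32.4%), against 7.15% of all and 8.53% for genes in the table. The members with TCACGTG were Arsa, Ctsa, Ctsd, Gaa, Gla, Glb1, Lamp1, Lgmn, Naglu and Sgsh. Lamp1 is printed over the 100 bases before its start (chr8:13159061-13159160, plus strand) because it held 4 matches, and Tpp1 (chr7:105752236-105752335, minus strand) over the same length because it came next to Ctsd in the skin library and held none. Around the match, 30 bases are printed for a member of each of 3 enzyme groups, Ctsd (chr7:142387908-142387937, minus strand), Glb1 (chr9:114401018-114401047, plus strand) and Arsa (chr15:89477423-89477452, minus strand). The Ctsd stretch precedes the RefSeq start used here but lies inside the gene as annotated in GENCODE M21. The Ctsd and Arsa stretches each overlap 1 annotated exon. Capitals mark TCACGTG or its reverse complement, read 5′ to 3′ on the strand of the gene.
Lamp1: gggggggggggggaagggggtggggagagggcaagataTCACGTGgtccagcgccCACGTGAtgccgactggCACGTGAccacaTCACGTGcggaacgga
Tpp1: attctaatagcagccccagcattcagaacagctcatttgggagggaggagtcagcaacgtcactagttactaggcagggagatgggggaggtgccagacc
Ctsd: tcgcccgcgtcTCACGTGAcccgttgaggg
Glb1: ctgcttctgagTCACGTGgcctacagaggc
Arsa: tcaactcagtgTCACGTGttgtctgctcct

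A second motif, GAGGAAGT, is of the kind bound by the myeloid factor PU.1. It was in 4 of the 37 windows (10.8%), against 3.20% of all windows and 3.13% for genes in the table. The members with this motif were Ctsc, Ctss, Gla and Gusb. Ctss and Ctsc are printed because they were among the genes that most set the macrophage-labelled library apart, at chr3:95526773-95526802 and chr7:88277923-88277952, both on the plus strand, with the match in capitals on its reverse strand.
Ctss: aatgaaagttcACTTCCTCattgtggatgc
Ctsc: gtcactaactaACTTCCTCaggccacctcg
The Ctss stretch overlaps 2 annotated exons, and its match spans the gene start. These matches are letters in a window and show neither binding nor activity.

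Fitting FPKM values to whole numbers of fragments put the mapped fragments at between 8950000 and 12750000 per library. By this estimate, an FPKM of 1 on a 2 kb transcript stood for about 17.9 to 25.5 fragments. The skin library stood apart. Its FPKM summed to 84036 against 140044 to 169289 elsewhere, and 26 genes that reached an FPKM of 10 in each of the other 5 had a 0 in it, against 0 such genes for any other library. A 0 is therefore given only as listed. Values are also given after median-of-ratios scaling over the genes that reached an FPKM of 1 throughout, which divided the skin library by 0.521 and the others by 1.02 to 1.24. The 12 macrophage markers in the table summed to 2700.1 FPKM in the macrophage-labelled library and to 1.34 to 243 elsewhere, but Lyz2, a lysozyme that neutrophils also make, was 2633 of this sum there. Csf1r read 34.1 and Adgre1 18.4 in that library, C1qa 0.17, and Vsig4 and Cd5l were listed at 0. The same library held 9 eosinophil markers at a sum of 10026 and 11 neutrophil markers at 8112, and EMPs held the latter at 10372. The 12 mast cell markers summed to 375 in liver MCPs, 804 and 3845 in the earlier and later limb MCPs, and 15800 in skin, where Gata2 was listed at 0. Connective tissue and skin markers summed to 61.1 in limb MCPs at E14.5 and 12.3 in skin, and to at most 0.66 elsewhere.

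More lysosomal genes had their highest value in the macrophage-labelled library than in any other, and Ctsd and Tpp1 stood far above the other members in skin. Summed FPKM of the 37 genes was 758 in EMPs, 632 in liver MCPs, 1294 in the macrophage-labelled library, 669.5 and 654 in the earlier and later limb MCPs, and 718 in skin. After scaling the skin sum was 1378 and the macrophage sum 1267, while the other libraries lay between 526 and 615. In skin, Ctsd and Tpp1 made up 29.9% and 24.8% of the sum. Without this pair the sum was 325 in skin (625 scaled), 1195 in the macrophage-labelled library (1170.4 scaled) and between 534 and 660.4 elsewhere (450.07 to 534 scaled). Of 36 members that reached an FPKM of 1 somewhere, 17 were highest in the macrophage-labelled library, where 14.2% of 10769 such genes had their highest value, and 16 after scaling, against 18.1%. The skin library was the highest for 2 members, against 7.93%, and for 10 after scaling, against 22%. The skin library was the lowest for 24 members, as it was for 61.5% of all such genes. After scaling it was the lowest for 11 members. The share of all genes was not computed on that scale, so this count cannot be read against 61.5%.

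**Figure D1:**
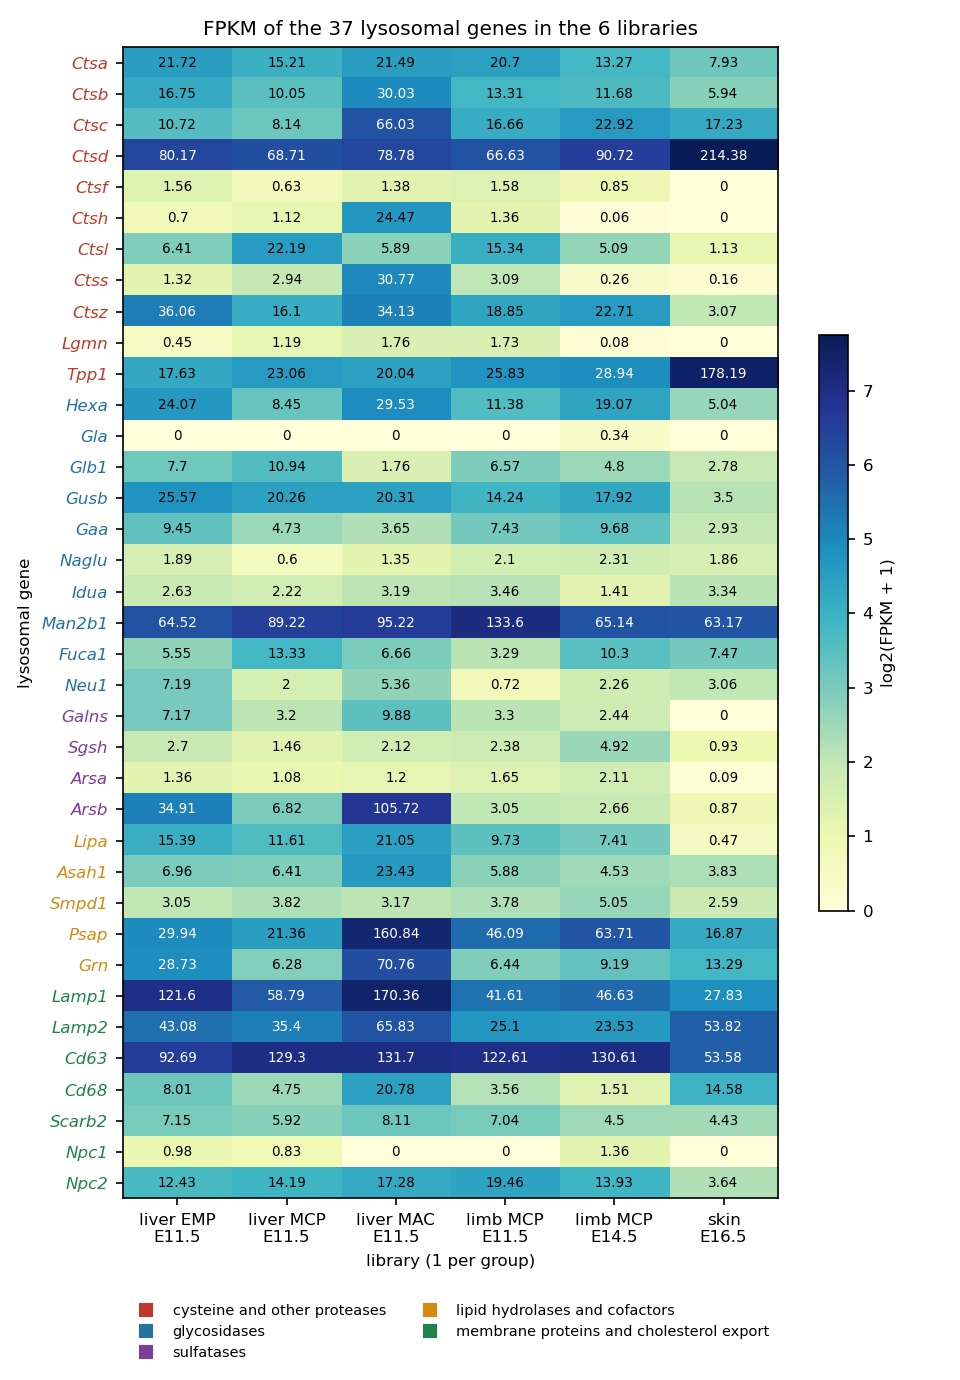
FPKM of the 37 lysosomal genes (rows, name colour by enzyme or protein group) in the 6 libraries (columns), with the deposited value printed and the colour scale on log2(FPKM + 1). The macrophage-labelled liver library has the highest value of 17 of these genes, and Ctsd (214) and Tpp1 (178) stand out in skin.

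**Figure D2:**
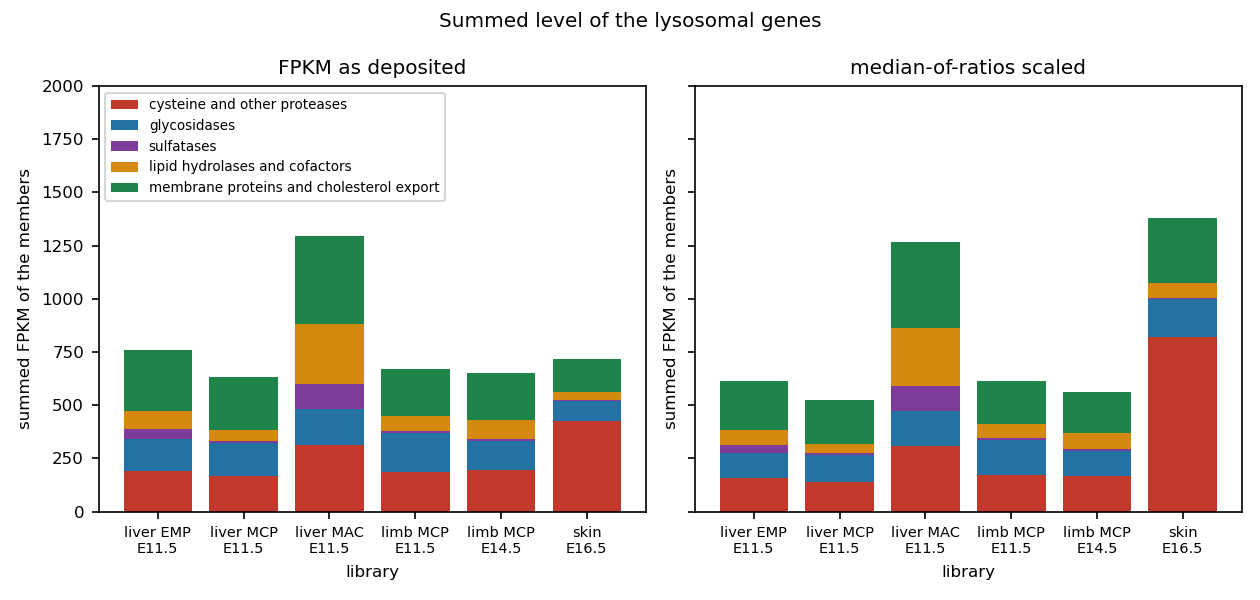
Summed FPKM of the members in each library, stacked by group, as deposited (left) and after median-of-ratios scaling (right), both axes from 0. The proteases make up 428 of 718 FPKM in skin, and the macrophage-labelled library sums to 1294.

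In what follows, values in a series are FPKM as deposited, in the order liver EMPs, liver MCPs, macrophage-labelled cells, earlier (E11.5) limb MCPs, later (E14.5) limb MCPs and skin. Among the proteases, Ctsd, the aspartic cathepsin D, read 80.2, 68.7, 78.8, 66.6, 90.7 and 214, and Tpp1, a serine protease that removes tripeptides, read 17.6, 23.1, 20.04, 25.8, 28.9 and 178. Both were nearly level in the 5 liver and limb libraries and high in skin, where they ranked 42 and 51 among all genes. Their scaled skin values were 411 and 342. Ctsd (chromosome 7, 142375911 to 142388038) shares 34.4% of its exon bases with Gm49369, annotated as protein-coding on the same strand, so its reads are not surely its own, while Tpp1 (chromosome 7, 105744811 to 105752235) shares none with another gene in GENCODE M21.

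The other proteases showed several different patterns. Ctsh, an aminopeptidase-type cathepsin, read 0.70, 1.12, 24.5, 1.36, 0.06 and 0, and Ctss, a cathepsin that trims the invariant chain of MHC class II, read 1.32, 2.94, 30.8, 3.09, 0.26 and 0.16. Both were high in the macrophage-labelled library alone. Ctsc, which activates granule serine proteases of myeloid and mast cells, read 10.7, 8.14, 66.0, 16.7, 22.9 and 17.2. It was also highest in the macrophage-labelled library, but unlike the former pair it stayed above 17 in later limb and skin cells. Ctsb, a broad endopeptidase, read 16.8, 10.1, 30.03, 13.3, 11.7 and 5.94. Ctsl, an endopeptidase, went the other way, with 6.41, 22.2, 5.89, 15.3, 5.09 and 1.13, and was highest in liver MCPs. It shares 26.8% of its exon bases with the opposite-strand antisense gene Gm47123, so without strand their reads cannot be told apart. Ctsz, a carboxypeptidase, read 36.1, 16.1, 34.1, 18.9, 22.7 and 3.07, high in EMPs and macrophage-labelled cells and low in skin. Lgmn, legumain, which cuts after asparagine, read 0.45, 1.19, 1.76, 1.73, 0.08 and 0. Ctsf ranged from 0 in skin to 1.58, and Ctsa, the protective protein of beta-galactosidase and neuraminidase, from 7.93 to 21.7. Ctsh lies on chromosome 9 at 90054152 to 90076089 and Ctss on chromosome 3 at 95526786 to 95556403.

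Among the glycosidases, Man2b1, the lysosomal alpha-mannosidase, was the most abundant in each library, with 64.5, 89.2, 95.2, 133.6, 65.1 and 63.2. Its highest value was in the earlier limb MCPs. Hexa, the alpha chain of beta-hexosaminidase, read 24.1, 8.45, 29.5, 11.4, 19.1 and 5.04, and Gusb, beta-glucuronidase, 25.6, 20.3, 20.3, 14.2, 17.9 and 3.50. Glb1, beta-galactosidase, read 7.70, 10.9, 1.76, 6.57, 4.8 and 2.78, lowest in the macrophage-labelled library. Fuca1, alpha-fucosidase, read 5.55, 13.3, 6.66, 3.29, 10.3 and 7.47, and Neu1, the lysosomal neuraminidase, 7.19, 2.0, 5.36, 0.72, 2.26 and 3.06. Both had their lowest value in limb MCPs at E11.5. Gaa, acid alpha-glucosidase of glycogen breakdown, read 9.45, 4.73, 3.65, 7.43, 9.68 and 2.93. Naglu and Idua, which degrade heparan sulfate among other chains, stayed between 0.60 and 3.46. Gla, alpha-galactosidase, was listed at 0 in 5 libraries and at 0.34 in limb MCPs at E14.5. Whether the zeros of Gla, and those of Npc1, come from how reads were assigned to transcripts was not tested.

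Arsb set the sulfatases apart. This enzyme, arylsulfatase B, removes sulfate from dermatan and chondroitin sulfate, and it read 34.9, 6.82, 105.7, 3.05, 2.66 and 0.87. It was very high in the macrophage-labelled library, intermediate in EMPs and low in all mast lineage libraries. Arsb (chromosome 13, 93771630 to 93943016) shares 32.3% of its exon bases with the opposite-strand lincRNA Gm26527, and strand use in the counting is not given in the sources used here. Galns, which acts on keratan sulfate, read 7.17, 3.20, 9.88, 3.30, 2.44 and 0, in the same rank order as Arsb over the liver libraries. Sgsh, heparan N-sulfatase, stayed between 0.93 and 4.92, and Arsa, arylsulfatase A of sulfatide breakdown, between 0.09 and 2.11.

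Of the lipid hydrolases and cofactors, Psap, the precursor of the saposins that present sphingolipids to their hydrolases, read 29.9, 21.4, 160.8, 46.1, 63.7 and 16.9. Grn, progranulin, a secreted and lysosomal glycoprotein that binds prosaposin, read 28.7, 6.28, 70.8, 6.44, 9.19 and 13.3. Both peaked in the macrophage-labelled library, and in the mast lineage libraries Grn was lowest in liver MCPs. Asah1, acid ceramidase, read 6.96, 6.41, 23.4, 5.88, 4.53 and 3.83, and Lipa, which releases cholesterol from its esters, read 15.4, 11.6, 21.1, 9.73, 7.41 and 0.47. Smpd1, acid sphingomyelinase, stayed between 2.59 and 5.05. Psap lies on chromosome 10 at 60277627 to 60302597 and Grn on chromosome 11 at 102430315 to 102437048.

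Of the membrane proteins, Cd63, Lamp1 and Lamp2 read above 20 in each library, and the other 4 were lower. Cd63, a tetraspanin of lysosomes and mast cell granules, read 92.7, 129, 131.7, 122.6, 130.6 and 53.6. Lamp1 read 121.6, 58.8, 170.4, 41.6, 46.6 and 27.8, and its relative Lamp2, which also serves chaperone-mediated autophagy, 43.1, 35.4, 65.8, 25.1, 23.5 and 53.8. Lamp1 and Lamp2 both peaked in the macrophage-labelled library, but in skin Lamp2 stood above Lamp1, and after scaling Lamp2 was highest in skin (103 against 64.5). Cd68, macrosialin, a LAMP family protein used as a macrophage marker, read 8.01, 4.75, 20.8, 3.56, 1.51 and 14.6, so that skin cells came next to the macrophage-labelled library as deposited and above it after scaling (28.0 against 20.3). The 12 macrophage markers, which do not include Cd68, summed to 1.34 in skin, a library where low values may not mean absence. Which cells the Cd68 reads of skin came from was not tested. Scarb2, the receptor that carries glucocerebrosidase to the lysosome, ranged from 4.43 to 8.11. Npc2, which passes cholesterol to the membrane protein Npc1, ranged from 3.64 in skin to 19.5 in limb MCPs at E11.5. Npc1 itself read 0.98, 0.83, 0, 0, 1.36 and 0.

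For the comparisons, a gene counted as higher or lower when log2(FPKM + 1) differed by at least 1, a 2-fold change, among genes reaching an FPKM of 1 in one or the other library. A stricter rule asked for a difference of 2, a 4-fold change, and an FPKM of 10. Folds are ratios of deposited FPKM, so a gene can exceed 2-fold without passing the 2-fold rule, which acts on FPKM + 1. Neu1 in later against earlier limb MCPs, at 3.14-fold, is an example. The comparisons share libraries, so they are not independent of each other.

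The first comparison was of MCPs with EMPs of the same liver. Of 35 lysosomal genes, 24 had a lower value in MCPs and 11 a higher one, where 45.9% of all genes tested were higher. After scaling 11 were again higher, beside 48.0% of genes. Arsb and Grn were lower by the most, with Ctsl and Fuca1 on the other side. Arsb was 5.12-fold and Grn 4.57-fold lower, while Ctsl was 3.46-fold and Fuca1 2.40-fold higher. At 2-fold, 2 of 35 members were higher, where 9.23% of all tested genes were, and 6 were lower, where 11.6% were. The lower ones besides Arsb and Grn were Neu1, Hexa, Ctsz and Lamp1, and Lamp1 no longer passed after scaling, with 2 higher against 8.60% of genes and 5 lower against 9.79%. The median difference was −0.32 log2 over the members and −0.08 over all 9448 genes tested. At 4-fold, Arsb and Grn were 2 of 20 members, against 3.09% of genes, and after scaling it was Arsb alone, against 2.58%. None was 4-fold higher, where 1.78% of genes were as deposited and 1.75% scaled. Neutrophil markers went the same way, with a sum of 1052 FPKM in MCPs and 10372 in EMPs and 7 of 10 lower, as did 4 of 8 eosinophil markers (1 higher) and 2 of 3 macrophage markers. All 10 erythroid markers were higher in MCPs, with a sum of 342 against 64.6. The part of these cell types in the differences was not tested.

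The macrophage-labelled library was set against EMPs next. A set of 8 lysosomal genes was at least 2-fold higher, namely Ctsh, Ctss, Ctsc, Psap, Asah1, Arsb, Cd68 and Grn. Ctsh was 35.0-fold, Ctss 23.3-fold, Ctsc 6.16-fold and Psap 5.37-fold higher. These 8 of 35 members (22.9%) stand beside 5.86% of all genes, and the 4 just named were 4 of 21 at 4-fold, against 2.39% (the same 4 against 2.71% scaled). None was 4-fold lower, where 0.661% of genes were as deposited and 0.44% scaled. Lower were Glb1, by 4.38-fold, and Gaa, by 2.59-fold, which is 2 of 35 against 9.84% of genes. Many common hydrolases were at nearly equal levels, as Ctsd (78.8 against 80.2), Ctsa (21.5 against 21.7) and Ctsl (5.89 against 6.41). The median difference was 0.28 over the members and −0.24 over 9124 genes. After scaling these were 0.55 and −0.01, Ctsb made the higher genes 9, against 7.54%, and Glb1 was the 1 lower gene, against 5.24%, while the split of all genes went from 535 higher and 898 lower to 688 and 478. In bulk RNA, more cells of a type and more RNA per cell cannot be told apart. Eosinophil markers were higher here as well, 8 of 8 tested by the 2-fold rule, with a sum of 10026 against 269.8 FPKM, as were 6 of 7 macrophage markers (2700.1 against 243). Of 11 neutrophil markers 7 were higher, such as Ltf (73.2 against 1.38), and 3 lower, such as Mpo (3621 against 8174). The part of these cell types in the lysosomal differences was not tested.

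Liver MCPs were also set directly against the macrophage-labelled cells. In liver MCPs, 14 of 35 members (40.0%) were at least 2-fold lower than in the latter, against 11.7% of all genes, and Glb1 and Ctsl were higher, 2 of 35 against 16.4%. Arsb was 15.5-fold, Ctsh 21.8-fold, Grn 11.3-fold, Ctss 10.5-fold, Ctsc 8.11-fold and Psap 7.53-fold lower, and these were the 6 of 24 members past 4-fold, against 5.99% of genes, with Cd68 added after scaling, against 6.88%. The others past 2-fold were Cd68, Asah1, Hexa, Lamp1, Ctsb, Galns, Neu1 and Ctsz, and with scaling also Lamp2 and Lipa, which made 16 against 14.2% (2 higher against 11.4%). Glb1 was 6.22-fold higher in MCPs, the 1 member 4-fold higher as deposited, against 3.72% of genes, and 0 were after scaling, against 2.64%. Markers of 3 other cell types were lower in MCPs too, with 6 of 7 macrophage, 8 of 8 eosinophil and 11 of 11 neutrophil markers, while 10 of 10 erythroid markers were higher, and their part in the result was not tested. Every group of the list had a median below 0, with −0.55 for proteases, −0.09 for glycosidases, −0.86 for sulfatases, −1.72 for lipid hydrolases and cofactors and −0.64 for membrane proteins, against 0.18 over 9529 genes. Scaling turned the split of all genes from 1565 higher and 1114 lower into 1086 and 1355, and the median over the members from −0.55 to −0.63.

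**Figure D3:**
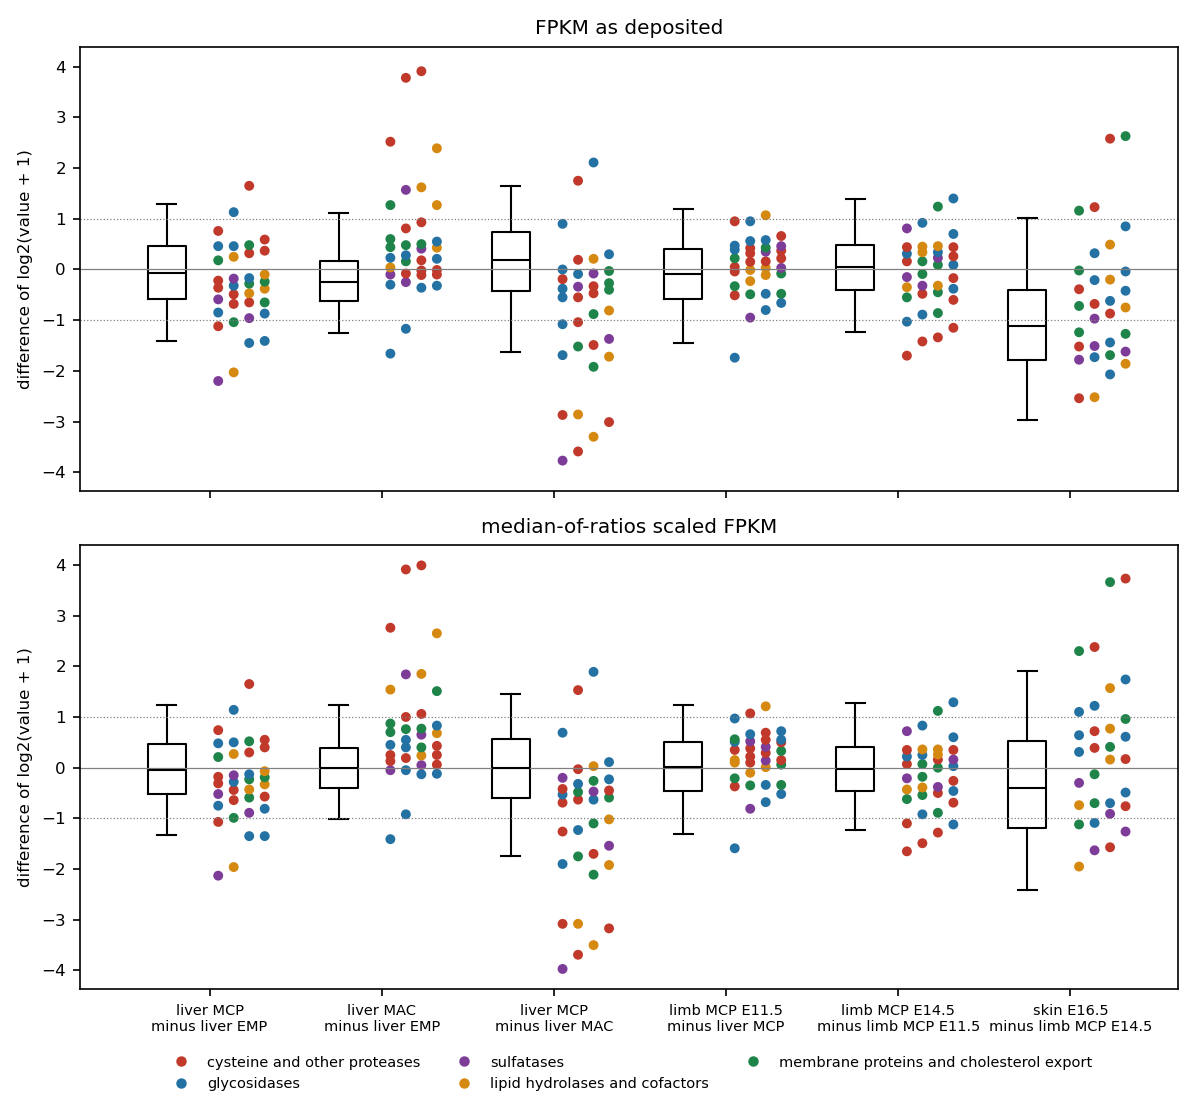
Difference of log2(value + 1) in each of the 6 comparisons (horizontal), for each member that passed the filter (points, coloured by group) beside all genes tested (box at the quartiles, whiskers at percentiles 5 and 95), as deposited (top) and median-of-ratios scaled (bottom). Dotted lines mark 2-fold. In liver MCPs against macrophage-labelled cells 14 of 35 points lie at or below the lower line in the upper panel.

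Limb and liver MCPs of the same day had close levels of most lysosomal genes. Psap was 2.16-fold higher in the limb, 1 of 35 members against 7.75% of genes, and Fuca1 was 4.05-fold lower, 1 of 35 against 12.8%. Ctsc, at 16.7 against 8.14, was 2.05-fold higher but passed the 2-fold rule only after scaling. With scaling 2 members were higher, against 8.93% of genes, and Fuca1 was again the 1 lower, against 9.40%. The median difference was 0.15 over the members and −0.09 over 9547 genes. Under scaling the split of all genes went from 740 higher and 1219 lower to 853 and 897. No member passed the 4-fold rule in either direction, where 1.18% of genes were higher and 2.04% lower (1.43% and 1.59% scaled). In the limb 8 of 10 erythroid markers were lower, with a sum of 50.6 against 342, as were 8 of 9 neutrophil markers (487 against 1052), and their part in these differences was not tested.

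Between E11.5 and E14.5, limb MCPs had lower levels of 4 cysteine proteases while most other members stayed near equal. Ctss read 0.26 against 3.09, Lgmn 0.08 against 1.73, Ctsh 0.06 against 1.36 and Ctsl 5.09 against 15.3. These were already low at E11.5, apart from Ctsl. With Man2b1, which was 2.05-fold lower, they made 5 of 36 members lower (13.9%), against 8.13% of genes. Fuca1 was 3.13-fold higher and Npc1 read 1.36 where E11.5 listed 0, a value that may not mean absence, which is 2 of 36 members against 9.86%. The same members passed after scaling, against 8.27% of genes lower and 8.12% higher. The median was 0.00 over the members and 0.05 over 9500 genes, and none passed the 4-fold rule, where 2.39% of genes were higher and 1.75% lower (2.12% and 1.78% scaled). Between these libraries neutrophil markers went from 487 to 2.01 FPKM, macrophage markers from 28.3 to 1.83 and eosinophil markers from 97.4 to 2.60. Connective tissue and skin markers went from 0.48 to 61.1. Their part in the lower cathepsin values was not tested.

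Skin cells at E16.5 were set against limb MCPs at E14.5, which differ in tissue and age at once. Cd68, Tpp1, Ctsd and Lamp2 were higher in skin by 9.66-fold, 6.16-fold, 2.36-fold and 2.29-fold, in a library where most genes read lower. These 4 of 32 members (12.5%) stand beside 5.21% of genes, and 13 members were lower (40.6%), beside 55.3% of genes. Lipa was 15.8-fold, Ctsz 7.4-fold and Gusb 5.12-fold lower, and Psap 3.78-fold. Arsa read 0.09 against 2.11, and Galns was listed at 0 against 2.44. At 4-fold, Cd68 and Tpp1 were 2 of 17 higher, against 1.78% of genes, and Ctsz and Gusb 2 of 17 lower, against 33.4%. Scaling moved the median over all 8984 genes from −1.11 to −0.40 and that of the members from −0.74 to 0.24, a change of sign. With it 8 members were higher, against 15.6% of genes, by the addition of Idua, Grn, Neu1 and Man2b1. The lower members were then 6, against 30.8%, namely Lipa, Galns, Ctsz, Arsa, Npc1 and Gusb. The split of all genes went from 468 higher and 4965 lower to 1405 and 2763. Tpp1, Cd68, Ctsd and Lamp2 passed 4-fold under scaling, 4 of 17 members against 6.52% of genes, and none was 4-fold lower, against 14.4%. Cd63 is a case that the scale decides, with a difference of −1.27 as deposited and −0.13 scaled. Of 12 mast cell markers 3 were higher in skin and 2 lower as deposited, and 8 and 1 after scaling. Of 5 connective tissue and skin markers tested, 5 were lower as deposited and 3 after scaling. The part of these cell types in the lysosomal differences was not tested.

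**Figure D4:**
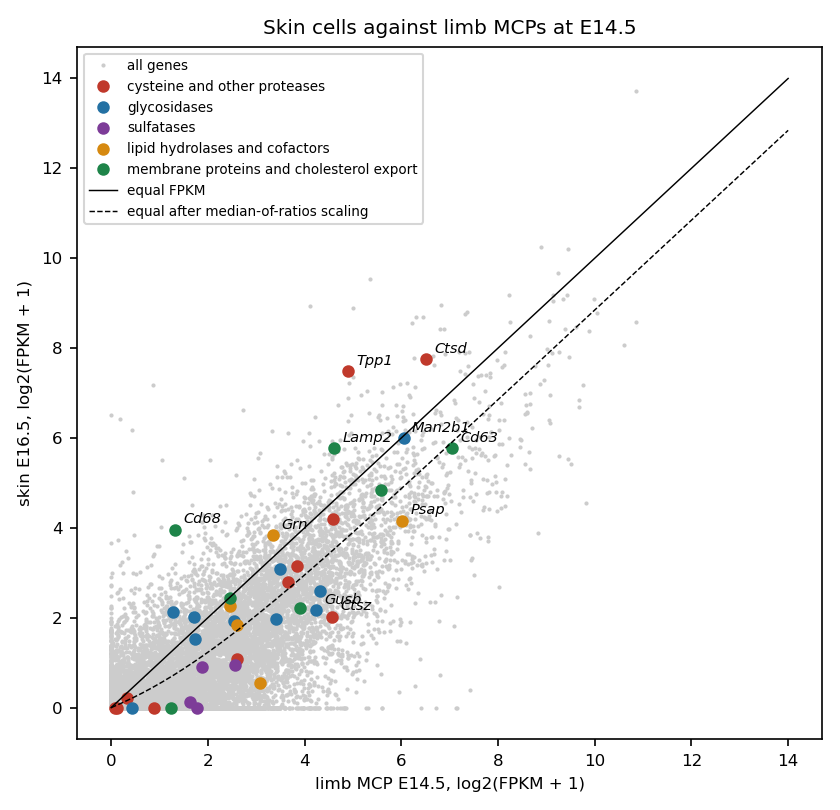
Level of each gene (grey, all genes) in skin cells at E16.5 (vertical) against limb MCPs at E14.5 (horizontal), both as log2(FPKM + 1), with the members coloured by group. The solid line marks equal FPKM and the dashed line equality after median-of-ratios scaling. Tpp1, Ctsd, Cd68 and Lamp2 lie above both lines, and Ctsz and Gusb lie below both.

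Along the mast lineage libraries, from liver MCPs through earlier and later limb MCPs to skin, Tpp1 and Grn were higher at each step, 2 of 36 members against 2.27% of genes. Ctsl, Glb1, Arsb, Lipa and Asah1 were lower at each step, 5 of 36 against 13.8%. After scaling, the ordered set was Ctsc, Ctsd, Tpp1, Naglu, Smpd1 and Grn upward, against 5.62% of genes, and Ctsl, Arsb and Lipa downward, against 9.40%. Without the skin library, 10 members were higher at both remaining steps, against 16.7% of genes, and 7 lower, against 18.7%. Tpp1, Grn, Ctsl, Arsb and Lipa thus had the same order on either scale. The shorter set of libraries is part of the longer one, so the same order there follows and adds nothing. No minimum step was asked, and Grn read 6.28 in liver MCPs and 6.44 in the earlier limb MCPs.

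The rest of the lysosomal machinery was read from 6 further lists of 90 genes. Outside the member list, Ids, iduronate 2-sulfatase, which degrades heparan and dermatan sulfate, read 1.21, 1.06, 3.28, 16.2, 157.6 and 238, low in the liver and very high in late limb and skin cells. Its scaled value in skin was 457. Of the 27 other hydrolases, 8 of 24 tested were at least 2-fold higher in limb than in liver MCPs and none was lower, with a median of 0.45, beside 7.75% of all genes higher, 12.8% lower and an all-gene median of −0.09. In skin against limb MCPs at E14.5, 3 of 25 were higher and 7 lower, beside 5.21% and 55.3% of all genes. After scaling these were 7 and 4, beside 15.6% and 30.8%.

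Subunits of the V-ATPase, which acidifies the lysosome, were 4 of 17 lower in liver MCPs than in EMPs and 6 of 17 lower than in macrophage-labelled cells, with none higher in either. Of all genes 11.6% and 11.7% were lower in these comparisons, and 9.23% and 16.4% higher. Tcirg1, a membrane-sector subunit, read 35.4, 8.54, 34.5, 7.50, 6.88 and 2.30, and Atp6v0c, the proton-binding ring subunit, 130.6, 33.1, 104, 49.6, 40.9 and 32.4. Both separated EMPs and macrophage-labelled cells from the mast lineage libraries. Other membrane proteins were 4 of 20 lower in liver MCPs than in EMPs, beside 11.6% of all genes, and none was higher, beside 9.23%. Of these, Cd164, sialomucin, read 76.4 in the earlier and 212.6 in the later limb MCPs. Among delivery genes, Sort1, a sorting receptor, read 18.8, 5.44, 26.7, 4.51, 2.36 and 0.34. Gnptab, whose product starts the mannose 6-phosphate tag, read 6.81, 4.84, 3.73, 7.83, 20.9 and 3.70, highest in limb MCPs at E14.5.

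Of the MiT/TFE factors, Tfec read 50.7, 3.21, 44.9, 1.76, 0 and 0.06, and Mitf 0.92, 0.30, 0.98, 0.95, 8.94 and 2.34. Tfec was thus high in EMPs and macrophage-labelled cells, and Mitf in limb MCPs at E14.5. Tfe3 stayed between 1.37 and 7.10, and Tfeb read at most 2.05, in the macrophage-labelled library. Of the cystatin-type inhibitors of cysteine cathepsins, 4 of 7 were higher in macrophage-labelled cells than in EMPs, all of them stefins, beside 5.86% of all genes, and 5 of 7 after scaling, beside 7.54%. Stfa2l1 read 20.1, 26.8, 557.8, 5.34, 0 and 0.28. The stefin genes share sequence, so that their single values are uncertain.

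**Figure D5:**
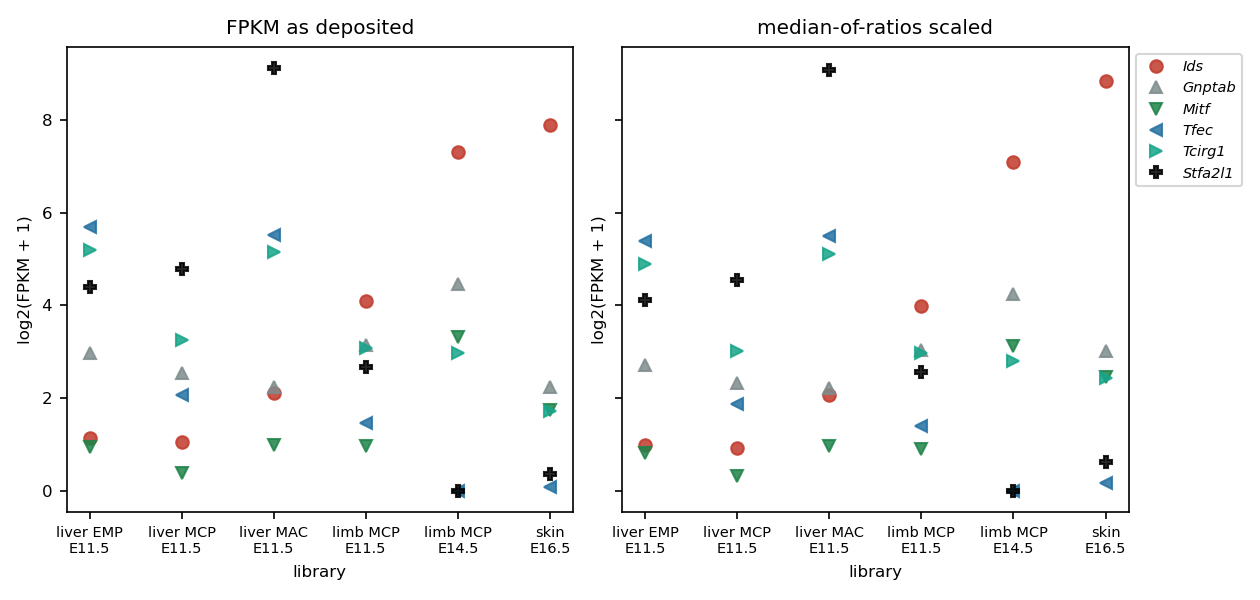
Level of 6 further lysosomal pathway genes in the 6 libraries, as log2(value + 1), as deposited (left) and median-of-ratios scaled (right). Ids is highest in skin (238 FPKM), Tfec and Tcirg1 in EMPs and macrophage-labelled cells, and Stfa2l1 in the latter.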

How the data were processed

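The authors deposited 1 table of FPKM values with 2 decimals. Bowtie2, RSEM and the builds mm10 and GRCm38 are named in the submitters' processing notes, with no versions, annotation or strand setting given in the sources used here. Of 17913 rows, 4 with repeated names were left out, and all 6 columns matched a label. FPKM carry no counts, so no count model was fitted, and with 1 library per group there are no p-values. Differences were taken on log2(FPKM + 1), which understates changes of low genes. The filters and rules are given with the comparisons, and scaled values use median-of-ratios factors over 4580 genes. By a method chosen after seeing the data, depth was sought as the total bringing fragments of 1409 single-transcript genes (effective length 49 bases below the transcript) nearest to whole numbers. At the estimates 73.3% to 79.5% lay within 0.2 of one, where 40% would by chance at a total fixed beforehand. The total was picked to make this share largest, so 40% is not the chance level of the estimate. Calls and depth were tested on simulated data that held only the sampling of fragments. Variation between libraries was not simulated, and calls were scored only for genes of high FPKM. Calls of low genes were therefore not covered. The members and lists were chosen with earlier results of these data known. By the rule for named genes every member is accounted for. Members past 4-fold, or else the 3 largest past 2-fold in each direction, are given in every library, and other pathway genes come from the 2 largest differences per list, direction and comparison. Tfe3, Tfeb and the marker genes were named outside it, after their values were seen. Gene positions and exon overlaps come from GENCODE M21 (GRCm38). Exon bases are shared with other protein-coding genes by 11 members. The software was Python 3.11.15, numpy 2.4.6, pandas 2.3.3 and matplotlib 3.10.9.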

Additional observations from a re-analysis of the deposited data

How the results depend on the processing

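Each of the 12 member counts was recomputed under 6 alternatives, and 52 of these 72 values stayed within 1.5 times the reported count. Among the 52 are the 12 values without the expression filter, which could not move. With a pseudocount of 0.1 there were 4 higher members in liver MCPs against EMPs, 4 higher and 3 lower in limb against liver MCPs, and 4 higher in later against earlier limb MCPs. With a pseudocount of 5 these were 1 higher and 3 lower in liver MCPs against EMPs, 0 lower in macrophage-labelled cells against EMPs, 0 higher in limb against liver MCPs, 0 higher and 1 lower in later limb MCPs, and 7 lower in skin. With the filter raised to an FPKM of 10 there were 0 lower members in macrophage-labelled cells, 1 higher and 2 lower in later limb MCPs, and 6 lower in skin, where fewer members were tested. Rescaling to equal sums (TPM times a constant, so that pseudocount and filter kept their size) gave 3 higher in limb against liver MCPs. Median-of-ratios scaling gave 1 lower in macrophage-labelled cells against EMPs, 2 higher in limb against liver MCPs, and 8 higher and 6 lower in skin. It also turned the member median in skin against limb MCPs from −0.74 to 0.24, the 1 change of sign counted among 36 medians. The median of later against earlier limb MCPs was 0.00, so no change of sign could be counted for it. Its alternatives lay between −0.09 and 0.16. Removing the expression filter could not change a count. Genes below an FPKM of 1 in both libraries cannot differ by 1 on log2(FPKM + 1), so this alternative tests nothing. The cause of these moves was not tested, other than the fewer genes under the stricter filter. No paired analysis was possible because each group held 1 library, and no library could be left out of a comparison. Low values, such as 0.60 for Naglu in liver MCPs, rest on few fragments at these depths. Arsa at 0.09 in skin and Lgmn at 0.08 in later limb MCPs rest on fewer still.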
